A study of Mus musculus with 2 samples.

Results

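The genes described here are 10 that mark enteroendocrine cells, the hormone-secreting cells of the gut epithelium. They are the transcription factor genes Neurog3, Neurod1, Pax4, Isl1 and Insm1 and the secretory-granule genes Chgb, Scg2, Scg5, Pcsk1 and Cpe. They were picked by symbol, with earlier results of these arrays known. All 10 had probes, 12 in all, among 18350 genes named on the array. Of the 10, 6 were measured, that is, the scanner software flagged a probe as well above background for 1 of the RNAs on array 1 and on array 2 alike. In the whole series 12877 genes or accessions were measured.

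RNA of organoids grown from the small intestine of wildtype mice and cultured with RankL was compared with RNA of the same kind of organoids left without it. Organoids are self-organising epithelial cultures started from crypts, and all of them here received EGF, Noggin and R-spondin. RankL, a cytokine of the TNF family, was recombinant mouse protein at 50 to 200 ng/ml, and medium was renewed on day 2 and day 5. The mouse strain and age, any pooling, the harvest time and the dose behind these RNAs are not stated in the labels. Both RNAs were hybridised together on 2 dual-colour arrays, the second with the dyes swapped, so that RankL RNA carried Cy3 on array 1 but Cy5 on array 2. These are 1 RNA pair and so 1 replicate per condition, and no statistical test was possible. Every ± below is the SD of the 2 arrays. It is technical and holds no spread between cultures, and the number of arrays limits the precision.

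Enteroendocrine cells arise from crypt progenitors that escape Notch signalling and switch on Neurog3, a short-lived bHLH factor. Neurod1, Pax4, Isl1 and Insm1 act after it and set the hormone-producing subtypes. The mature cell packs peptide hormones into dense-core granules, where granins such as Chgb and Scg2 aggregate, the convertase Pcsk1 cuts prohormones and the carboxypeptidase Cpe trims the cut ends. Scg5 encodes a small granule protein that serves as a chaperone of the related convertase Pcsk2. Scg5 is also listed among markers of M cells, the antigen-sampling cells over Peyer's patches that the study's title says are induced by RankL.

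The stretches before the start sites of 4 granule genes are printed to show a sequence feature in which Scg5 differs from Chgb, Scg2 and Pcsk1. The RefSeq table on build GRCm38.p6 matched 7 of the 10 genes, and each window holds the 250 bases before the start. The windows are chr2:113829092-113829341, minus strand, chr2:132781392-132781641, plus strand, chr1:79440027-79440276, minus strand and chr13:75089607-75089856, plus strand. Capitals mark the cAMP response element TGACGTCA and its shorter form TGACG on either strand.
Scg5: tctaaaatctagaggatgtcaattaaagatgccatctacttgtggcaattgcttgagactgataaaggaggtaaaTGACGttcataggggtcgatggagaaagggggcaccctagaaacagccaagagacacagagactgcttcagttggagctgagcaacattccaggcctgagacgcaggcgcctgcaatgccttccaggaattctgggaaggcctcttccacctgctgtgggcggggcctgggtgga
Chgb: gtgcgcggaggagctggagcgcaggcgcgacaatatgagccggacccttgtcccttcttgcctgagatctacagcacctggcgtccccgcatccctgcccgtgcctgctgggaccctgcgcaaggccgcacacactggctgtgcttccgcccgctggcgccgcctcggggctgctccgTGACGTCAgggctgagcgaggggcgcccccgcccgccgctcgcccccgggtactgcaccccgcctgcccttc
Scg2: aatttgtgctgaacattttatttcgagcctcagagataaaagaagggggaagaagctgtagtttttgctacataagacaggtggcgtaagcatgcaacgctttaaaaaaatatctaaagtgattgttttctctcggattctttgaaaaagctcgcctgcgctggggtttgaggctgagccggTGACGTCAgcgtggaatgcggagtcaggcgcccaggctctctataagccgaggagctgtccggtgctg
Pcsk1: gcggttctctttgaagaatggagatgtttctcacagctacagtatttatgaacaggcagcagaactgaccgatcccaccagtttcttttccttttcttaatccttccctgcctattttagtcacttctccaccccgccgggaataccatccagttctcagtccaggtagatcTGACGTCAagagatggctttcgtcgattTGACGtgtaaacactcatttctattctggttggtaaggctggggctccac

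The full element TGACGTCA, a palindrome that contains the shorter TGACG, was present in Chgb, Scg2 and Pcsk1. Its first base lay 72, 68 and 78 bases before the start. The same letters occurred in 1.55% of 32851 promoter windows of that length. The windows of Scg5, Isl1, Neurod1 and Neurog3 did not hold it. Scg5 had the shorter TGACG once, 175 bases before the start, a match found in 17.8% of all windows. This motif was not among those planned and was searched after the sequences had been read. A motif of the factor NF-kB had been planned, but matches to it are not reported here. The letters GGAA, the core bound by Ets factors such as Spib, occurred 5 times on both strands together in Scg5, and 18.0% of all windows held at least 5. The letters CANNTG, the E-box read by bHLH factors, were found 3 times in Scg5, and 66.2% of windows held at least 1. The share of windows with at least 3 was not counted, so whether 3 is usual is not known. Matches describe the letters only. Pax4, Insm1 and Cpe were the genes without a matched window.

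Among the 10 genes, Scg5 was the only one past the size rule, which asks for a mean log2 ratio (RankL over untreated) of 1 or more in size, or 2-fold, with both arrays past 0.5 on the same side. The 5 other measured genes, Neurog3, Pax4, Chgb, Pcsk1 and Cpe, had mean log2 ratios between -0.25 and 0.43. Neurod1, Isl1, Insm1 and Scg2 were not well above background in either RNA on either array. Of all 12877 measured genes, 5.47% were higher by the rule and 2.5% were lower, against 1 and 0 of the 6 measured here. On the scanner software's own ratios those shares of all genes were 8.92% and 6.07%, and Scg5 was again the 1 call. The single call is no result about the set, since Scg5 passed the filter through its RankL signal alone, which favours a higher reading. The medians over all measured genes were 0.0086 for the ratio and 0.148 for the SD of the 2 arrays. In 76.9% of all measured genes the ratio lay within 0.5 of 0, as it did for all 5 of the others. These are bulk RNAs, so a change in the number of enteroendocrine cells and a change in RNA per cell cannot be told apart.

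**Figure D1:**
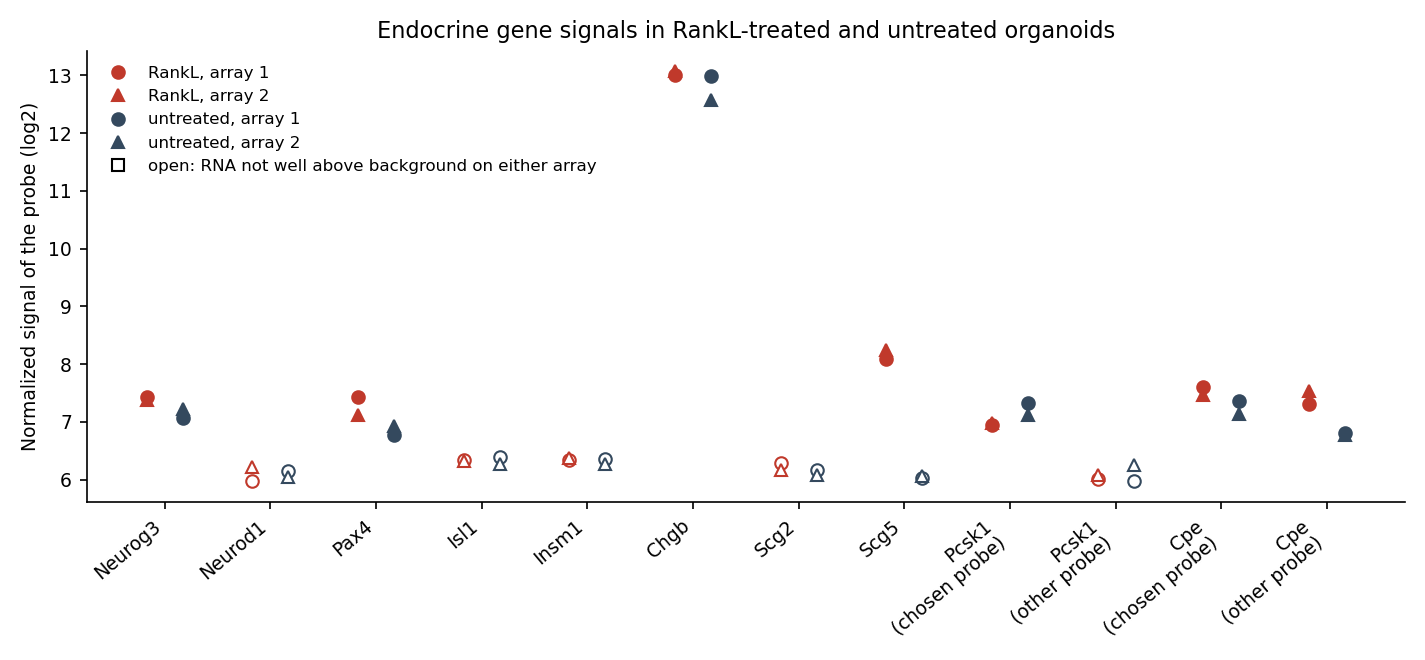
Normalized log2 signal of each of the 12 probes in RankL RNA (red, left) and untreated RNA (blue-grey, right), with array 1 as circles and array 2 as triangles. Open symbols mark an RNA not well above background on either array; Scg5 is filled in RankL RNA and open in untreated RNA, while 5 further probes are open in both. Heights of different probes cannot be compared.

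Neurog3, the factor that starts the endocrine programme, had log2 signals of 7.43 and 7.39 in RankL RNA on arrays 1 and 2, against 7.07 and 7.23 in untreated RNA. RankL RNA was the higher on each array, but by little. The log2 ratio was 0.26 ± 0.14, or 1.20-fold, with 0.36 on array 1 and 0.16 on array 2. A ratio above that of Neurog3 was seen in 24.3% of all measured genes. The gene lies on mouse chromosome 10 in the RefSeq assembly.

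Pax4, which favours some endocrine subtypes over others, had log2 signals of 7.43 and 7.12 in RankL RNA and 6.77 and 6.93 in untreated RNA. RankL RNA was again the higher on each array. The arrays gave unlike ratios, 0.67 on array 1 and 0.19 on array 2, for a mean of 0.43 ± 0.34. The component that followed the dye rather than the RNA was 0.24 in size.

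Neurod1, Isl1 and Insm1, which act downstream of Neurog3, had only dim probes. Neurod1 had log2 signals of 5.97 and 6.22 in RankL RNA and 6.15 and 6.04 in untreated RNA, and the arrays differed in direction. Isl1 lay at 6.34 and 6.32 in RankL RNA and at 6.39 and 6.27 in untreated RNA. For Insm1 they were 6.34 and 6.38 in RankL RNA and 6.36 and 6.27 in untreated RNA. The lowest log2 signals called well above background on these arrays were 6.18 and 6.09 for RankL RNA and 6.21 and 6.17 for untreated RNA, so these 3 genes sat near the detection limit and no fold change is given for them. A fall could not have been detected with these probes, and none of the 3 was above background in RankL RNA either.

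**Figure D2:**
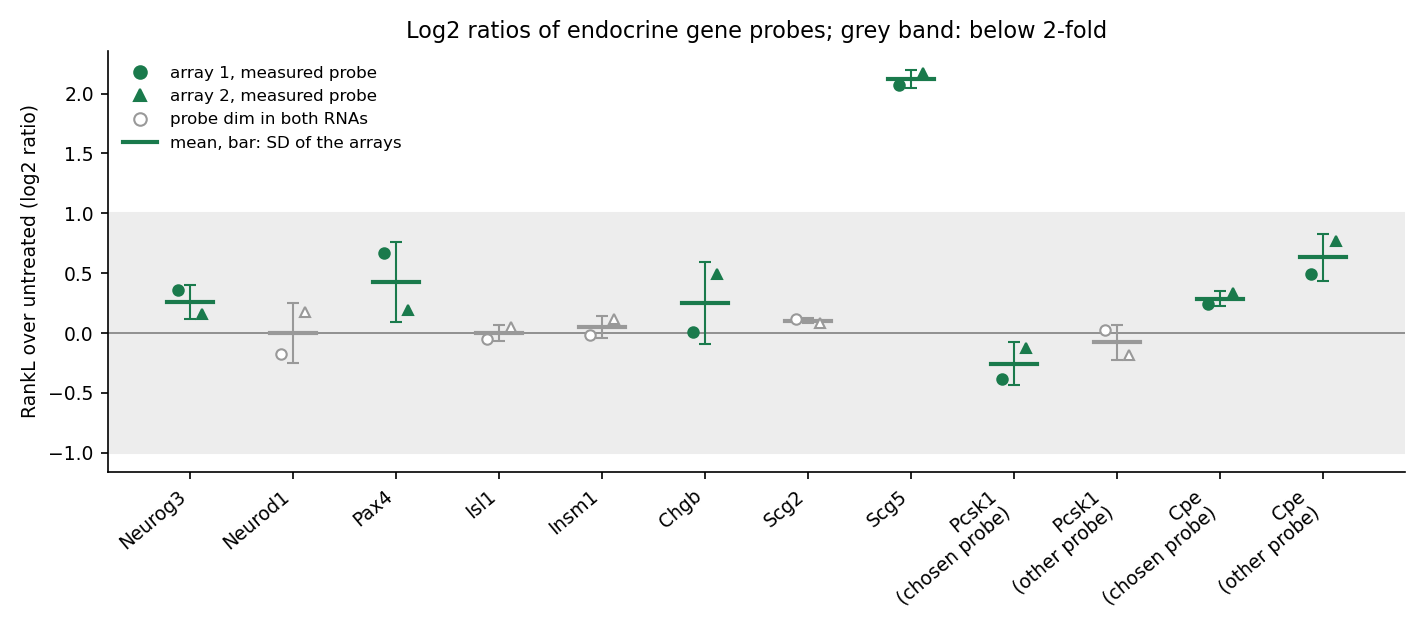
Log2 ratio of RankL over untreated for each of the 12 probes on array 1 (circles) and array 2 (triangles), with the mean as a line and the SD of the arrays as a bar. The Scg5 probe stands at 2.12, and the 11 others lie inside the grey band of less than 2-fold; grey open symbols are probes dim in both RNAs.

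Chgb encodes chromogranin B, one of the main granins of the endocrine granule, and its probe was well above background throughout. Its log2 signals were 13.0 and 13.1 in RankL RNA and 13.0 and 12.6 in untreated RNA. RankL was higher by 0.012 on array 1 and 0.49 on array 2. The mean ratio was 0.25 ± 0.34, an SD larger than the mean. That SD is close to 0.382, the 90th percentile over all measured genes. If the arrays were centred on their medians instead of by loess, Chgb read 0.0025.

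Scg2, the gene of the granin secretogranin II, was dim. It had log2 signals of 6.28 and 6.17 in RankL RNA and 6.16 and 6.09 in untreated RNA, values near the detection limit. Scg2 and Chgb thus carry the same TGACGTCA element in their windows, but a ratio can be given only for Chgb.

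Pcsk1, the convertase that cuts proglucagon and other prohormones, was the 1 measured gene with a ratio below 0. The log2 signals were 6.94 and 6.99 in RankL RNA and 7.32 and 7.11 in untreated RNA. Its log2 ratio was -0.25 ± 0.18, or 0.838-fold, with -0.38 on array 1 and -0.13 on array 2. Its other probe was dim in both RNAs.

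Cpe, the carboxypeptidase that removes basic residues after the convertases have cut, had 2 measured probes. The brighter, by which the gene was counted, had log2 signals of 7.61 and 7.46 in RankL RNA and 7.36 and 7.13 in untreated RNA. RankL RNA was higher on each array, and the ratio was 0.29 ± 0.060. The other probe had log2 signals of 7.30 and 7.54 in RankL RNA and 6.81 and 6.77 in untreated RNA, and gave 0.63 ± 0.19. Both probes point the same way and both lie short of the rule. On the log ratios of the scanner software the other probe read 1.13, past the rule, and the counted probe 0.26.

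Scg5 (NM_009162, chromosome 2) was well above background in RankL RNA and at background in untreated RNA. Above local background, its spot had 203 and 250.5 intensity units in RankL RNA and 6 and 16 units in untreated RNA on arrays 1 and 2. The log2 signals were 8.09 and 8.25 in RankL RNA and 6.02 and 6.07 in untreated RNA. The untreated signal was thus below the flag on each array and the RankL signal above it. Only a bound can be given for the fold. After normexp correction with offset 50, as for every bound given here, Scg5 was at least 3.95-fold higher with RankL, taking the lowest log2 signal called well above background as the untreated level. Where an untreated signal lay above that lowest signal, a bound takes the untreated signal itself.

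Read against that background-level untreated signal, the log2 ratio of Scg5 was 2.12 ± 0.075, with 2.07 on array 1 and 2.18 on array 2. No rank among all genes is drawn from it. The size differed between settings, being 2.96 with a normexp offset of 16, 5.00 on the scanner software's ratios and 1.91 without background subtraction, the last of these below the bound above. The SD of the arrays was 0.611 on the software's ratios and 0.275 without background subtraction. Each of these settings left Scg5 past the rule.

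By the counted probes, and by the mean of probes where that was the alternative, the 5 other measured genes kept their sign and stayed short of the rule over all 9 alternatives. Neurog3 ran between 0.16 and 0.43, Pax4 between 0.19 and 0.71 and Chgb between 0.0025 and 0.49. Cpe lay between 0.22 and 0.46 and Pcsk1 between -0.45 and -0.13. None of these ranges reached the lowest Scg5 value of 1.91.

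**Figure D3:**
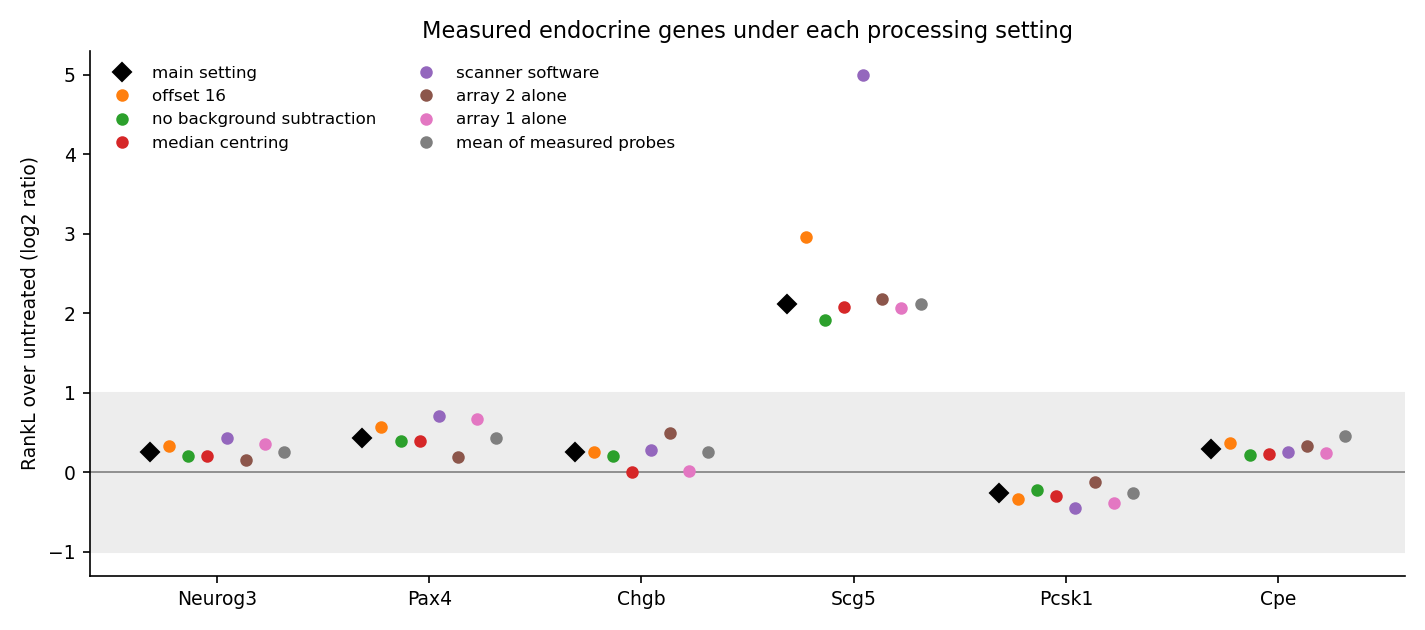
Log2 ratio of RankL over untreated for the 6 measured genes under the main setting (black diamond) and the other settings (coloured points); the grey band is less than 2-fold. Scg5 lies between 1.91 and 5.00 and above the band in each, while the 5 other genes stay inside it.

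Beside the other 5 measured genes, the log2 ratio of Scg5 stood 1.86 above their median. This is a description only, because the untreated Scg5 signal was at background and Scg5 passed the filter through RankL RNA.

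By their counted probes, all 18 M cell markers were measured and all 18 were higher with RankL by the rule, with a median log2 ratio of 3.55. The list was written with results of this study known, so the shared direction is not independent evidence. By these probes 2 of the 18 had a lower ratio than Scg5, namely Pglyrp1, a peptidoglycan-binding protein, at 1.60 ± 0.15 and Anxa10. On the scanner software's ratios 10 of the 18 were lower than Scg5, so its place in that order differed between the settings. It also differed between probes, since other measured probes read 1.495 for Sox8, 1.91 for Marcksl1, 1.73 for Aif1 and 0.72 for Gjb2, the last short of the rule, against 3.84 for the counted Gjb2 probe.

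The 3 markers nearest to Scg5 in ratio by the counted probes were Anxa10, Sox8 and Marcksl1. Anxa10, an annexin, had log2 signals of 8.14 and 8.46 in RankL RNA and 6.18 and 6.23 in untreated RNA, and a ratio of 2.10 ± 0.19. Sox8, a transcription factor gene of the M cell programme, had log2 signals of 8.59 and 8.58 in RankL RNA and 6.08 and 6.18 in untreated RNA, and a ratio of 2.45 ± 0.082. Like Scg5, both lacked the flag in untreated RNA on each array, which holds for no other of the 18 markers. By the counted probes their bounds were at least 4.23-fold and at least 5.22-fold higher. On array 2 their untreated signals lay above the lowest called signal of 6.17 and were taken themselves. The other measured Sox8 probe read lower, at a log2 ratio of 1.495, so the Sox8 bound holds for the counted probe only. Marcksl1, a regulator of actin, was above background in both RNAs, at 2.58 ± 0.0088. A similar ratio was not particular to M cell markers, since the hormone gene Sct, above background in both RNAs, was at 2.08 ± 0.019. With 1 RNA pair, likeness here means a similar ratio and nothing about shared control.

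**Figure D4:**
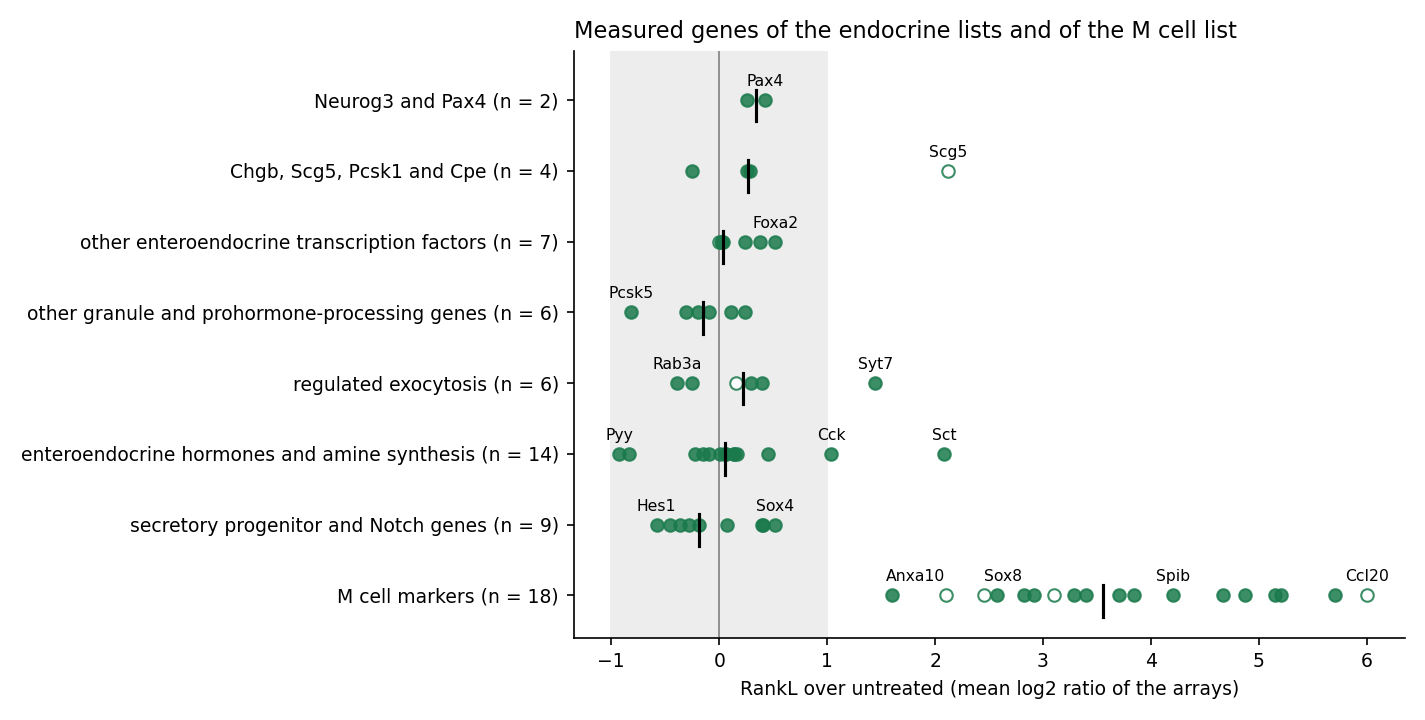
Mean log2 ratio of RankL over untreated for each measured gene (points) by gene group, with the group median as a black line and the grey band below 2-fold. Open points were not well above background in 1 of the RNAs on at least 1 array. Scg5 at 2.12 lies in the range of the M cell markers, which run between 1.60 and 6.0, and also beside the hormone gene Sct at 2.08. The other granule genes and both transcription factors lie within the band.

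The wider endocrine programme was described with lists of further genes. Of 14 further transcription regulators with a probe, 7 were measured, and 0 were higher and 0 lower by the rule. Their median log2 ratio was 0.039, but 0.11 on array 1, 0.096 on array 2 and 0.30 on the scanner software's ratios. They ran between 0.0014 for Runx1t1, a corepressor gene, and 0.52 ± 0.0052 for Foxa2, a forkhead factor of gut endoderm. Pax6, Rfx6, Lmx1a, Myt1, Etv1, Rfx3 and Prox1 were dim in both RNAs or above background on 1 array only.

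The further granule and processing genes gave 6 measured of 12 with a probe, 0 higher and 0 lower, with a median of -0.15, or 0.0048 on array 1 alone. Chga, the granin chromogranin A, was at -0.20 ± 0.22. Pcsk2, the convertase that the Scg5 protein chaperones, was at 0.24 ± 0.0066, short of the rule that Scg5 passed. Pcsk5, a convertase of many tissues, was the lowest at -0.82 ± 0.10 and read -1.59 on the scanner software's ratios, past the rule. Scg3, another granin family gene, had the flag in RankL RNA on 1 of the 2 arrays and not in untreated RNA, and counted as dim.

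Genes of regulated exocytosis, the fusion of granules with the membrane, had 6 measured of 16. The median was 0.22, or 0.14 on array 1, 0.55 on the scanner software's ratios and -0.0074 with dim probes included, and 1 was higher by the rule. It was Syt7, a calcium sensor for granule and lysosome fusion, with log2 signals of 7.96 and 8.35 in RankL RNA and 6.85 and 6.56 in untreated RNA, and a ratio of 1.45 ± 0.48. Rab3a, a vesicle GTPase, was lowest at -0.39 ± 0.53. The neuroendocrine vesicle genes Syp, Snap25, Cadps and Rims2 were among the 10 that were dim.

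Upstream of Neurog3, the list of secretory progenitor and Notch genes gave 9 measured of 12, 0 higher and 0 lower, with a median of -0.19, or -0.031 on array 1 and -0.34 on array 2. Hes1, the Notch target that represses Neurog3, was the lowest at -0.58 ± 0.040, and -1.33 on the scanner software's ratios. Sox4, a factor of endocrine progenitors, was the highest at 0.52 ± 0.013.

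The hormone and amine synthesis genes, products of the cells that these factors specify, were all measured. Of 14, 2 were higher and 0 lower, with a median of 0.056, or 0.027 on array 2 and 0.00089 on the scanner software's ratios. Secretin (Sct) was at 2.08 ± 0.019 and cholecystokinin (Cck) at 1.04 ± 0.31. Peptide YY (Pyy) was lowest, at -0.93 ± 0.18 by its counted probe and at -0.39 by another. On the scanner software's ratios Pyy, at -1.11, and neurotensin (Nts), at -1.13, were lower by the rule. Cck fell short of the rule on array 1 alone, at 0.82, with median centring, and on the scanner software's ratios.

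Cell type markers were read beside these values. Of 14 enteroendocrine markers 10 were measured. Summed over all 14, dim ones included, the normalized signal was 23466 and 23593 in RankL RNA, against 16050 and 13569 in untreated RNA. Without Sct the sums were 14730 and 15487 in RankL RNA and 13967 and 11672 in untreated RNA. Without Sct and Chgb they were 6548 and 6878 in RankL RNA and 5853 and 5558 in untreated RNA. A sum weights each probe by its brightness. The 7 M cell markers of the same check summed to 60744 and 63114 in RankL RNA and to 2594 and 2030 in untreated RNA. Their part in the Scg5 value was not tested.

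Neurons and glia also express granule genes, and the defining neuronal markers Elavl4, Uchl1 and Prph were not measured. Of 9 neuron and glia markers 2 were measured, Tubb3 at 0.33 ± 0.11 and S100b. S100b, a calcium-binding protein, lacked the flag in untreated RNA on each array. Its untreated log2 signals, 6.38 and 6.31, still lay above the lowest signals called well above background. Its value, 2.26-fold higher with RankL, is therefore the plain ratio and not a lower bound. The list summed to 855 and 861 in RankL RNA and 715 and 734 in untreated RNA. These sums include the dim markers, which add signals near the detection limit, so they are no measure of neuronal or glial RNA. Of 10 blood and stroma markers 0 were measured, and all 6 epithelial markers were. In the longer lists of these cells, Acta2, a smooth muscle actin, was at 0.62 ± 0.036 by its counted probe and at -0.087 by another, the keratin Krt20 was past the rule at 2.40 ± 0.30, and the keratin Krt18 was lowest of the epithelial genes at -0.92 ± 0.29.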

How the data were processed

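Total RNA was labelled with Cy3 or Cy5 and hybridised to 2 dual-colour Agilent arrays, per the labels' protocols. The deposited scanner files hold median spot and background intensity per channel, made with Agilent Feature Extraction 10.5.1.1 per the file headers (8.5.1.1 per the submitters' processing notes). Their log10 ratios were background-subtracted and dye-normalized by that software, per the file headers. The deposited series matrix holds the same log10 ratios turned to RankL over untreated, within 5e-06. Flags (an "other" unit) mark spots above background, per the file headers.

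Background was corrected with normexp (offset 50) and ratios by loess in limma 3.58.1 under R 4.3.3, with control spots at weight 0. Control and outlier spots were left out, 0 were saturated, and spots of 1 probe were averaged. Ratios were turned to RankL over untreated and averaged over the dye swap as 1 replicate. Between 38.3% and 43.4% of spots were well above background. Channel signals were also scaled by Aquantile; they give the log2 signals, sums and bounds. Names came from RefSeq accessions (65.4% of probes, GRCm38.p6). A gene took its measured probe of highest mean intensity. With the dye swap left unturned, 0 genes passed the size rule. The size rule was also run on simulated spots, with changes planted only in spots of higher signal. That run does not cover an untreated signal at background, as for Scg5.

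Named genes were the 10, and from each further list its highest and lowest measured gene and those past the rule, with Chga, Pcsk2 and Scg3 and the 3 M cell markers nearest to Scg5. Genes named as dim and the markers of other cells were named after their values were seen. The members and lists were chosen with earlier results of these data known. Protein features that had been planned were not analysed here, and the planned NF-kB motif is not reported.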

Additional observations from a re-analysis of the deposited data

How the results depend on the processing

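By the counted or averaged probes, all 9 alternatives kept Scg5 as the 1 gene of the 10 past the rule and 0 lower, and kept the sign of each of the 6 measured ratios. The 9 are not separate checks. The series matrix repeats the software's ratios, including dim probes leaves these 6 ratios unchanged, and the single arrays make up the main mean. The median log2 ratio of the measured genes was 0.27, and 0.35 with offset 16, 0.21 without background subtraction, 0.22 with median centring, 0.36 on the scanner software's ratios and on the series matrix, 0.18 with dim probes included, and 0.34 with probes averaged. Single arrays gave 0.26 to 0.30. Read against an untreated signal at background, the excess of Scg5 over the median of the others was 1.86, and 2.62 with offset 16, 1.71 without background subtraction, 4.72 on the software's ratios and the series matrix, and 2.02 with dim probes included. Single arrays gave 1.82 to 1.98. The cause was not tested. Among the other values, 241 stayed within the SD of the arrays or within 1.5 times the count, 52 moved beyond that, and 4 counts were smaller, all for the hormone list, where Cck dropped out. Lower counts reached 1 for the granule list (Pcsk5) and 2 for the hormone list (Pyy and Nts). They reached 2 for the Notch list and 1 for the epithelial list (Krt18). No paired analysis was possible because 1 RNA pair was measured. Signal over background is also a limit: 4 of the 10 genes and the untreated level of Scg5 lie at the floor of detection.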
